A study of Bos taurus with 2 samples.

Results

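SDR16C6, a short-chain dehydrogenase/reductase of the family that holds several retinol and retinal enzymes, was followed together with 8 genes of retinoid metabolism (SDR16C5, RDH10, DHRS3, DHRS9, ALDH1A1, ALDH1A2, ALDH1A3 and CRABP2) in the muzzle of 2 HanWoo cows. SDR16C6 was picked because its signal differed strongly between these same cows, so the values below describe it and do not test it. Probes were chosen by name, as those whose transcript accession belongs to one of the 9 genes in RefSeq. There were 9 such probes, covering 6 of the 9 genes, among 43639 noncontrol probes on each array, of which 47.2% could be given 1 of 9647 gene symbols. SDR16C5, ALDH1A2 and ALDH1A3 had no matched probe and were not analysed here.

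The groups were a light-muzzle cow (tissue colour Yellow) and a dark-muzzle cow (tissue colour Black), both of the HanWoo strain, both female and both 30 months old. Total RNA of the muzzle of each cow was labelled with Cy3 and hybridised to 1 Agilent 1-colour bovine array, and both arrays lay on the same slide. With 1 array per group there were no replicates: no test was possible, each difference is one between 2 animals, and precision is limited by having so few arrays. A level is the log2 processed signal of a probe relative to the 75th percentile of its array (an intensity of 1144 in the light muzzle and 1137 in the dark muzzle), and a log2 ratio is its level in the dark muzzle less its level in the light muzzle. The errors given with intensities and ratios are those that the scanner software assigned to each spot. They cover noise of the array and not the spread between cows, and probes of the same transcript differed by a median SD of 0.18 in log2 ratio over 7661 transcripts. The arrays read whole muzzle tissue, in which fewer cells of a type and less RNA per cell cannot be told apart.

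Cells take up vitamin A as retinol and store it as retinyl esters. Retinol is oxidised reversibly to retinal by short-chain dehydrogenases such as RDH10, and retinal is oxidised irreversibly to retinoic acid by the ALDH1A enzymes. DHRS3 works in the opposite direction and reduces retinal to retinol. Retinoic acid is passed to its nuclear receptors by CRABP2 and is broken down by the CYP26 enzymes. In skin, retinoic acid is known for its control of keratinocyte differentiation and of sebaceous glands. In mice SDR16C6 and its neighbour SDR16C5 oxidise retinol in skin, and in humans SDR16C6 is a pseudogene.

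All 9 probes were well above background on both arrays, and their levels in both cows are drawn in the plot of probe levels. The probe of SDR16C6 (NM_001099707) had an intensity of 235 ± 24.3 in the light muzzle and 5570 ± 557 in the dark muzzle. Its level was -2.28 in the light muzzle, below the 75th percentile of the array, and 2.29 in the dark muzzle, above it. The dark-muzzle signal was 23.8-fold higher, a log2 ratio of 4.57 ± 0.21 (scanner error). This was rank 11 from the highest of the 33451 probes measured on both arrays. The gene was read by 1 spot on each array, so no second probe or spot checks this value. The 33 spots within 3 rows and columns of it had a median log2 ratio of -0.074, with single spots from -1.28 to 3.42. The 3979 probes of like brightness, within 0.5 of its mean level, had a median of -0.038.

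**Figure D1:**
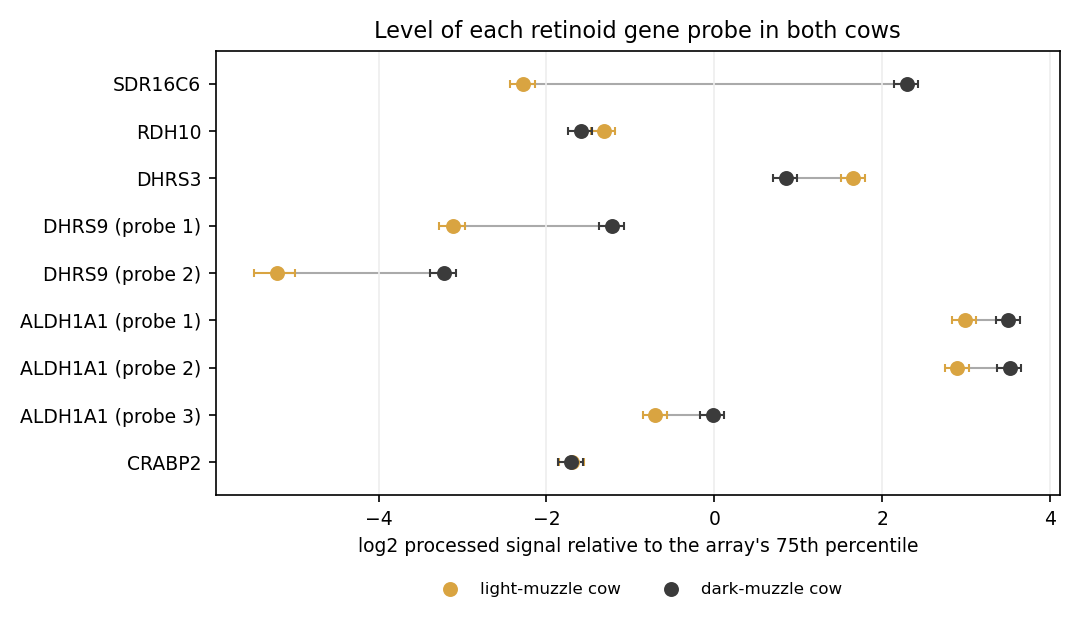
Level of each probe of the retinoid genes in both cows, as log2 processed signal relative to the 75th percentile of the array (x axis), with 1 row per probe; points are the light and the dark muzzle and bars the scanner software's error of the spot. SDR16C6 moves from -2.28 to 2.29 and both DHRS9 probes are also higher in the dark muzzle, while the points of CRABP2 overlap.

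Of the 9 probes, 3 were higher by at least 2-fold in the dark muzzle, the probe of SDR16C6 and both probes of DHRS9, where 9.76% of all 36630 probes with a ratio passed that fold in this direction. No probe of the set, 0 of 9, was at least 2-fold lower, where 7.17% of all probes were. The other 6 lay between. The median log2 ratio of the 9 probes was 0.62, with 6 above 0 and 3 below, against a median of 0.0038 for all probes measured on both arrays. Nothing is read from these shares, because the set was drawn up with the ratio of SDR16C6 known. The plot of all ratios shows where the 6 genes fall.

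**Figure D2:**
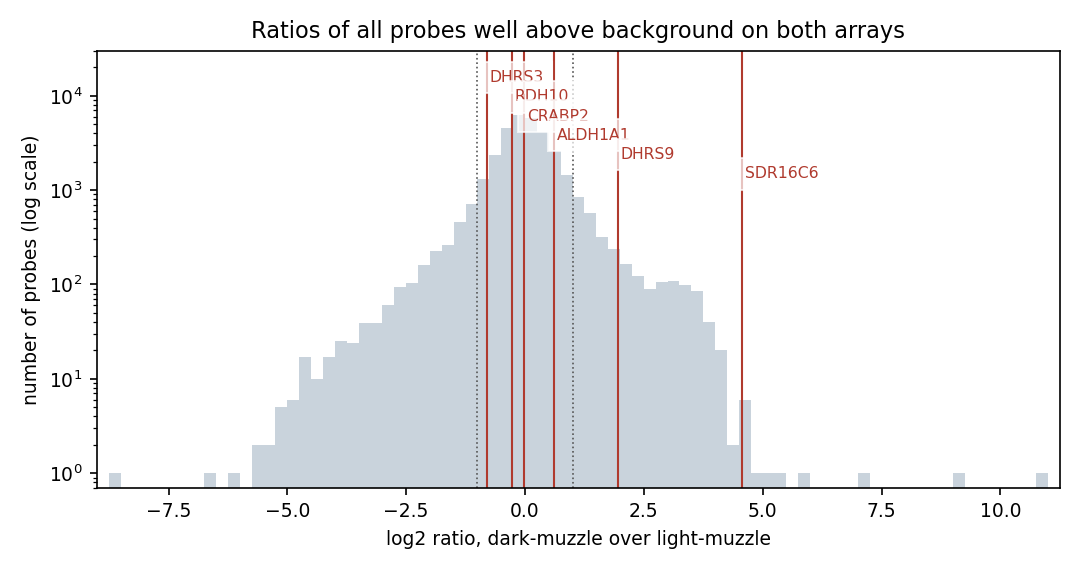
Number of probes (y axis, log scale) by log2 ratio of the dark over the light muzzle (x axis) for the 33451 probes well above background on both arrays; solid lines are the mean ratios of the 6 retinoid genes and dotted lines mark 2-fold. SDR16C6 at 4.57 lies in the far right tail, DHRS9 at 1.95 lies on its shoulder, and the other 4 genes lie between the dotted lines.

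Among the other enzymes that interconvert retinol and retinal, DHRS9 was higher and RDH10 and DHRS3 were not. DHRS9, a short-chain dehydrogenase that oxidises retinol and some steroids, had 2 probes of the same transcript (NM_174733). The first had an intensity of 132 ± 14.3 in the light muzzle and 489 ± 49.2 in the dark muzzle, and the second had 30.8 ± 5.16 and 122 ± 12.9. Both were higher in the dark muzzle, by log2 ratios of 1.90 ± 0.21 and 1.99 ± 0.29 (scanner error). Their mean was 1.95 ± 0.065 (SD between the 2 probes), or 3.86-fold, and they stood at percentiles 97.2 and 97.4 of all measured ratios. Both are dim in the light muzzle, and the fold depended on the processing. Normexp is a background correction, run here with an offset of 50 added to every spot, which by itself shrinks the ratios of dim spots. Under normexp the ratios were 1.47 (2.77-fold) and 1.18 (2.26-fold).

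RDH10 (NM_174734), the enzyme that makes most retinal from retinol in the embryo, had an intensity of 459 ± 46.2 in the light muzzle and 378 ± 38.1 in the dark muzzle. The log2 ratio of -0.27 ± 0.21 was little larger than the scanner error. DHRS3 (NM_174180), which reduces retinal, had an intensity of 3610 ± 361 in the light muzzle and 2052 ± 205 in the dark muzzle. It was the lowest of the 9 probes with a log2 ratio of -0.81 ± 0.20, or 1.75-fold lower in the dark muzzle, and stood at percentile 9.54 of all measured ratios.

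ALDH1A1 (NM_174239), which oxidises retinal to retinoic acid, was read by 3 probes that all pointed the same way. Intensities in the light and dark muzzle were 9038 ± 904 and 12902 ± 1290 for the first probe, 8521 ± 852 and 13063 ± 1306 for the second, and 703 ± 70.6 and 1123 ± 112 for the third. The log2 ratios of 0.52, 0.62 and 0.68 averaged 0.61 ± 0.082 (SD between the 3 probes), or 1.53-fold higher in the dark muzzle, which is under the 2-fold threshold. CRABP2 (NM_001008670), which carries retinoic acid to the nucleus, had an intensity of 354 ± 35.7 in the light muzzle and 348 ± 35.1 in the dark muzzle. Its log2 ratio of -0.015 ± 0.21 lay within the scanner error, and its sign turned under normexp (0.049).

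SDR16C6, RDH10, DHRS3, HSD17B11 and HSD17B13 belong to the same SDR16C branch of the short-chain dehydrogenases, a grouping made here after the values had been seen. SDR16C5, by its name also of this branch, had no matched probe. Of the branch genes read here, HSD17B13, an enzyme of lipid droplets that acts on retinol, was the other with a large difference. Its 3 probes (NM_001046616) had intensities of 4.12, 5.55 and 21.7 in the light muzzle, none well above background, and of 73.0, 628 and 912 in the dark muzzle, all well above it. Their light-muzzle levels are therefore limits. Taking for each the array's detection limit (the dimmest probe that still stood well above background) or the probe's own signal if brighter, the dark muzzle exceeded the light one at least 3.52-fold, at least 30.3-fold and at least 42.2-fold. Under normexp the folds were 1.95, 8.54 and 9.83, so the first probe no longer passed 2-fold and the other 2 did. HSD17B11, another lipid droplet enzyme that is closest to HSD17B13, had 5 probes with log2 ratios from -0.32 to -0.10 and a mean of -0.23 ± 0.082 (SD between probes). The plot of the SDR16C branch shows the difference between these genes.

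**Figure D3:**
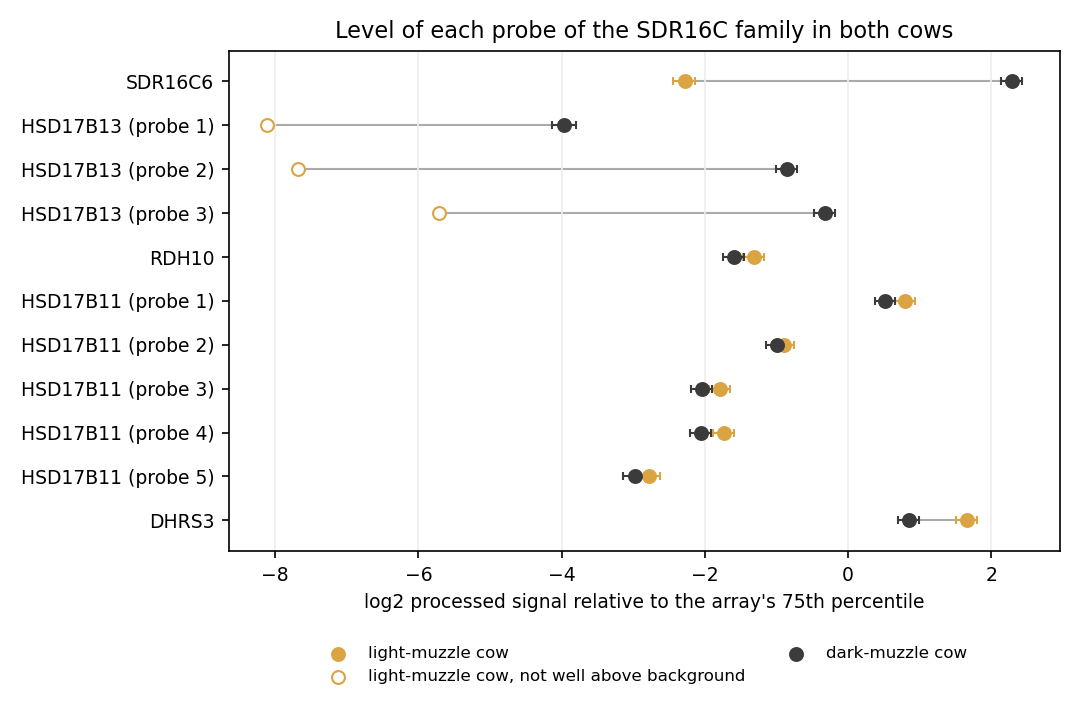
Level of each probe of the SDR16C branch in both cows, as log2 processed signal relative to the 75th percentile of the array (x axis); filled points were well above background, open points were not, and bars are the scanner software's error, drawn for filled points only. For SDR16C6 and the 3 probes of HSD17B13 the dark-muzzle point lies far to the right of the light-muzzle point of the same probe. RDH10, the 5 probes of HSD17B11 and DHRS3 have log2 ratios between -0.81 and -0.10. SDR16C5 had no matched probe and is not drawn.

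A wider list of 57 genes of retinoid uptake, storage, conversion, binding, breakdown and response was set beside these. Of these genes 45 had a probe, 102 probes in all, and 90 probes had a ratio or a lower bound. Higher by at least 2-fold in the dark muzzle were 25 probes of 18 genes (27.8% of the 90, against 9.76% of all probes). Of these, 14 were measured on both arrays and 11 were lower bounds, against 2820 and 755 among all higher probes. The pathway calls thus rested more often on bounds than those of all probes. At least 2-fold lower were 11 probes of 7 genes (12.2%, against 7.17%), all of them measured on both arrays. No gene had probes past 2-fold in both directions. The median log2 ratio of the 73 probes measured on both arrays was 0.13, with 39 above 0 and 34 below. Many of the higher probes were dim in the light muzzle: under normexp 13 of the 25 higher probes and 9 of the 11 lower probes were still past 2-fold. The counts by step below have the same background, 9.76% higher and 7.17% lower. The plot of the pathway gives every probe with a ratio or bound by step.

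**Figure D4:**
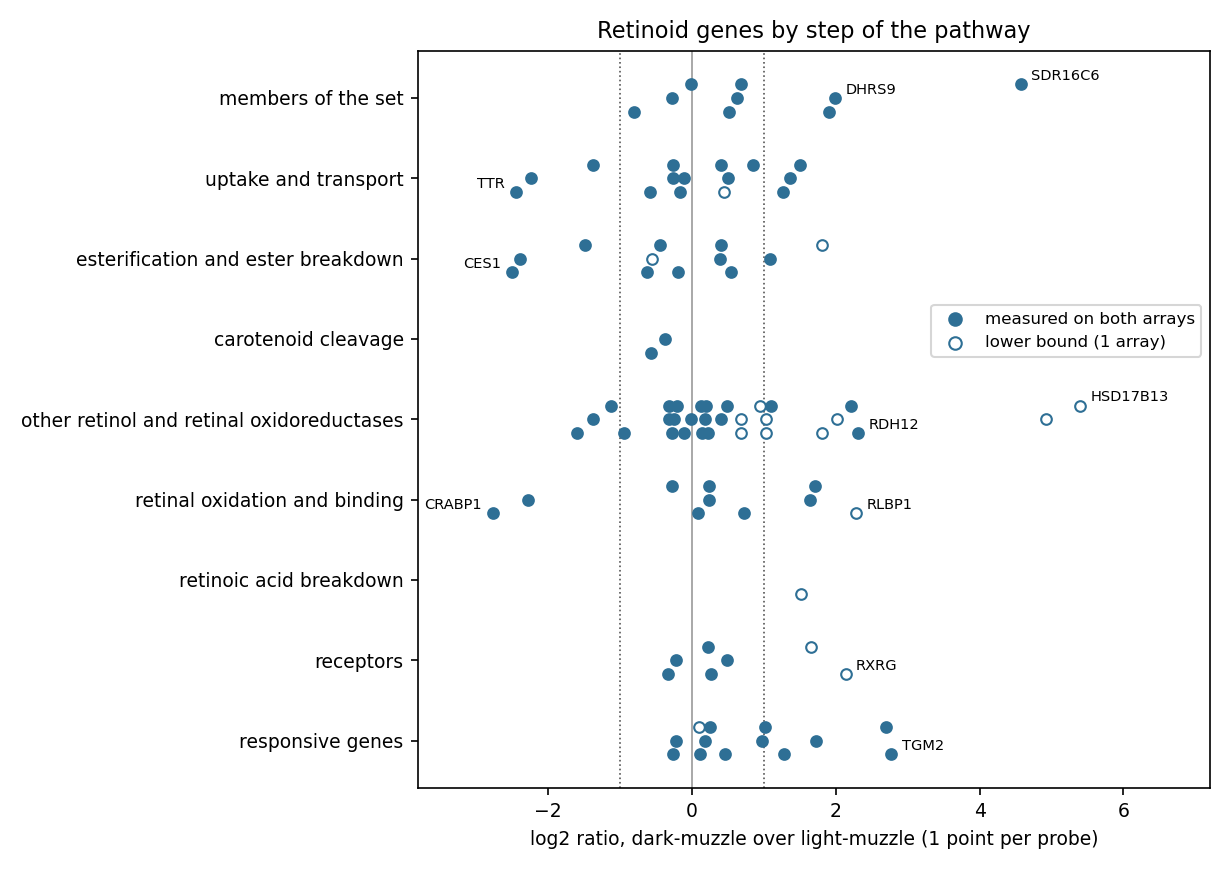
Log2 ratio of the dark over the light muzzle (x axis) for each probe of the retinoid genes, with 1 row per step of the pathway; filled points were measured on both arrays, open points are lower bounds from 1 array, and dotted lines mark 2-fold. The oxidoreductases span both directions, from DHRS4 at -1.59 to HSD17B13 at 5.40 (against a dim light-muzzle spot), and the responsive genes have no probe at or beyond 2-fold lower.

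Among genes of uptake and transport, 3 of 15 probes were at least 2-fold higher and 3 at least 2-fold lower. TTR (transthyretin), the plasma partner of the retinol carrier RBP4, was lower in the dark muzzle by both probes: intensities of 5260 and 3389 in the light muzzle stood against 1115 and 618, which is 4.69-fold and 5.45-fold lower. RBP4 itself had log2 ratios of -1.38 and -0.58. STRA6, the membrane receptor that takes up retinol from RBP4, had 4 measured probes between -0.26 and -0.10, and its other probe was above background in neither cow. RBP2, a retinol-binding protein inside the cell, had a log2 ratio of 1.37, or 2.58-fold higher. SCARB1, a receptor for lipoproteins that also takes up carotenoids, had 3 probes that were 1.80-fold, 2.40-fold and 2.83-fold higher, and under normexp the second of these was 1.92-fold higher. RBP5 stood well above background in the dark muzzle alone, with a bound of 0.44.

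For retinyl esters, 2 of 12 probes were at least 2-fold higher and 3 at least 2-fold lower. LRAT, the main enzyme of retinol esterification, had log2 ratios of -0.20, -0.62 and 0.39, with no single direction. CES1, a carboxylesterase that can release retinol from its esters, was lower by both probes: 1 had an intensity of 43339 in the light muzzle and 7606 in the dark muzzle, a log2 ratio of -2.50, and the other probe had -2.38. DGAT1, a second esterifying enzyme best known for triglycerides, had measured ratios of -0.44 and -1.48, the latter 1.995-fold lower under normexp and so just under the threshold. Its other probe was well above background in the light muzzle alone, with a bound of -0.55 that was -0.054 under normexp. Of the lipases, LIPE had a measured ratio of 0.54 and, for another probe, a bound of at least 3.52-fold higher. PNPLA4 had ratios of 0.41 and 1.08. Under normexp the LIPE probe with the bound was at 0.91 and the higher PNPLA4 probe at 0.60, both under 2-fold. BCO2, a carotenoid-cleaving enzyme, had ratios of -0.37 and -0.57.

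The other retinol and retinal oxidoreductases had 9 of 30 probes at least 2-fold higher and 3 at least 2-fold lower. Besides HSD17B13, RDH12, a retinal reductase of epithelia and photoreceptors, was higher by both probes. Its intensities were 75.9 and 49.4 in the light muzzle and 350 and 244 in the dark muzzle. The log2 ratios were 2.21 and 2.31, and 1.58 and 1.46 under normexp, so both probes kept their direction and stayed past 2-fold. DHRS4, which reduces retinal and other carbonyls, was lower by both probes, with intensities of 22557 and 3697 against 7447 and 1416 and log2 ratios of -1.59 and -1.38. DHRS7, a less characterised relative, had ratios of -1.12 and -0.94, and the first of these was -0.94 under normexp. RDH16, HSD17B6, ADH6 and RDH8 each had 1 probe past 2-fold higher in the dark muzzle, at log2 ratios or bounds of 2.02, 1.03, 1.03 and 1.11. None of these 4 probes was past 2-fold under normexp, where they had 0.82, 0.30, 0.33 and 0.59. Of the other probes of these genes, the measured one of ADH6 had -0.32, the opposite direction, and that of RDH16 had 0.49. RDH16 and HSD17B6 each had a further bound, of 0.68 and 0.95. RDH5, RDH13, RDH14 and ADH5 had measured ratios between 0.13 and 0.41, and ADH4 had -0.0093, a sign that turned under normexp (0.042).

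In the step that oxidises retinal or binds retinoids in the cell, 3 of 10 probes were at least 2-fold higher and 2 at least 2-fold lower. CRABP1, the cellular retinoic acid-binding protein related to CRABP2, accounted for both lower probes. Its intensities were 15557 and 3903 in the light muzzle and 2271 and 805 in the dark muzzle, which is 6.81-fold and 4.82-fold lower. CRABP2, by contrast, had a log2 ratio of -0.015. FABP5, which also binds retinoic acid, had ratios of 0.73, 0.24 and 0.24. AOX1, an aldehyde oxidase that can oxidise retinal, had ratios of 0.085, 1.64 and 1.71, and under normexp the second of these was 0.84. ALDH8A1 had -0.28. RLBP1, the retinaldehyde-binding protein known from the retina, had 1 probe at least 4.88-fold brighter in the dark muzzle, at an intensity of 101 (2.33-fold under normexp), whereas its other 2 probes were above background in neither cow.

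Of the enzymes that break down retinoic acid, CYP26A1 was measured here, and CYP26B1 and CYP26C1 were not analysed. A CYP26A1 probe had an intensity of 59.6 in the dark muzzle and was at least 2.88-fold higher there, or 1.66-fold under normexp, while the other 2 probes were above background in neither cow. Among the nuclear receptors, RARA had a log2 ratio of 0.22, RARG had 0.26, -0.22 and -0.33, and RXRB had 0.49. RXRG, a receptor partner found in skeletal muscle among other tissues, stood well above background in the dark muzzle alone by both of its probes, with bounds of 1.65 and 2.14. Under normexp these were 0.75 and 1.03. RARB and RXRA were not analysed here.

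Genes that retinoic acid is known to induce had 5 of 13 probes at least 2-fold higher (9.76% over all probes) and 0 at least 2-fold lower (7.17% over all probes), with a median log2 ratio of 0.72 over their 12 measured probes. TGM2 (tissue transglutaminase), a classical retinoic acid target that crosslinks proteins, had intensities of 2435 and 685 in the light muzzle and 16549 and 4411 in the dark muzzle. The dark-muzzle signals were 6.84-fold and 6.48-fold higher. ZBTB16, a transcription factor, was 3.31-fold higher by its 1 probe, and RARRES2 (chemerin) had ratios of 0.98 and 1.28. Of the other genes of this list, RARRES1 had -0.22, CD38 had 0.46, NR2F1 had -0.26 and NR2F2 had 0.18, 0.12, 1.02 and 0.26. The NR2F2 probe past 2-fold was at 0.65 under normexp.

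Of genes measured on both arrays, those whose log2 ratio was nearest to that of SDR16C6 were KRTAP11-1 (4.57), MSTN (4.60), CAPN3 (4.52), KRT4 (4.22) and ART3 (4.09), a likeness that rests on 2 arrays. KRTAP11-1 is a keratin-associated protein of hair, KRT4 a keratin of mucosal epithelium, MSTN (myostatin) a brake on muscle growth, and CAPN3 a protease of skeletal muscle. Other probes of these genes were also higher in the dark muzzle. KRT4 had further ratios of 5.40 and 5.98, ART3 had 3.89, CAPN3 had 3 more measured ratios, of which the highest was 3.83, and a bound of 3.25, and MSTN had a bound of 4.09. Under normexp, where SDR16C6 had 4.13, the nearest probes came apart: KRTAP11-1 had 3.85, ART3 3.41, MSTN 3.06 (8.32-fold) and CAPN3 2.85 (7.19-fold), while KRT4 had 3.97.

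In gene order along the chromosome of the RefSeq annotation (ARS-UCD2.0), SDR16C6 lies between SDR16C5 and PENK, with non-coding genes among the 3 nearest on each side. PENK, the precursor of enkephalin peptides, was the only one of these 6 neighbours with a probe, and it was also higher in the dark muzzle. Its level was -1.79 in the light muzzle and 0.44 in the dark muzzle, a log2 ratio of 2.23. Of the next protein-coding genes on either side, looked up after the values had been seen, PLAG1, MOS, LOC101902490 and UBXN2B had no matched probe and were not analysed here, and the 4 named next had smaller ratios. CHCHD7 had 0.80, RPS20 had -0.071 and -0.16, BPNT2 had -0.19, and FAM110B had 0.60 and 0.99.

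Marker genes of other cell types also differed between the cows, and their part in the results above was not tested. All 9 measured skeletal muscle genes were higher by at least 2-fold in the dark muzzle, against 9.12% of the 8508 genes measured on both arrays (each the mean of its measured probes), with a median gene ratio of 3.01, and their summed level had a log2 of 9.31 in the light muzzle and 11.83 in the dark muzzle. The brightest of them, MB (myoglobin) and ACTA1 (skeletal actin), had mean ratios of 2.56 and 2.24. In the opposite direction, 4 of 6 serous gland genes were at least 2-fold lower, against 6.1% of the 8508 genes, with a median of -2.90 and a summed level of 8.57 against 4.86. PIP and PIGR, the brightest genes of this list, had ratios of -4.89 and -3.29. The other 2 measured genes of this list were higher, BPIFA1 at 1.29 (0.55 under normexp) and LPO at 0.57. No defining marker of muscle was below background in the light muzzle, and of the serous gland genes STATH alone was below it in the dark muzzle.

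The epidermis itself was well represented in both cows. The gene counts in this and the next paragraph have the same background, 9.12% higher and 6.1% lower of the 8508 genes. Basal keratinocyte genes had a median ratio of -0.41 over 5 genes with 1 of them 2-fold higher, and their summed level was nearly the same (9.52 against 9.55). KRT14 had -0.41 and KRT5 -0.52. Suprabasal keratinocyte genes had a median of 1.11, with 3 of 6 at least 2-fold higher, a summed level of 8.58 against 9.60, and ratios of 1.57 for KRT10 and 0.25 for DSG1. The 3 mucosal epithelium genes had a median of 0.62 with 1 of 3 at least 2-fold higher and a summed level of 7.40 against 8.73. KRT6A had 0.62, KRT4 had 5.20 and MAL had -0.40. Sebaceous gland genes had a median of 1.27 with 3 of 4 at least 2-fold higher and a summed level of 4.44 against 4.83. Of these, SCD had 0.30 and PLIN2 1.07, and MC5R was above background in neither cow.

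Of the pigment cell genes, 3 of 5 measured were at least 2-fold higher, with a median of 1.34 and a summed level of 1.46 against 2.43. PMEL had 1.70, and TYRP1 was well above background in the dark muzzle alone. DCT had -0.52 by its measured probe. Its other probe was well above background in the dark muzzle alone, with a bound of 0.54, so the DCT probes had no single direction. Fibroblast genes had a median of -0.42 (0 of 5 past 2-fold, summed level 9.22 against 8.70), with COL1A2 at -0.65 and DCN at -0.33. Endothelial genes had a median of 0.74 (1 of 4 at least 2-fold higher, summed level 1.79 against 2.67), with PECAM1 at 1.14 and KDR at 0.26. Leukocyte genes had a median of -0.024 (0 of 4 past 2-fold, summed level 1.15 against 0.94), with CD68 at -0.055 and CD14 at -0.33. The ratio of SDR16C6, 4.57, exceeded the mean ratio of every marker gene measured on both arrays except KRT4, as the plot of marker genes shows.

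**Figure D5:**
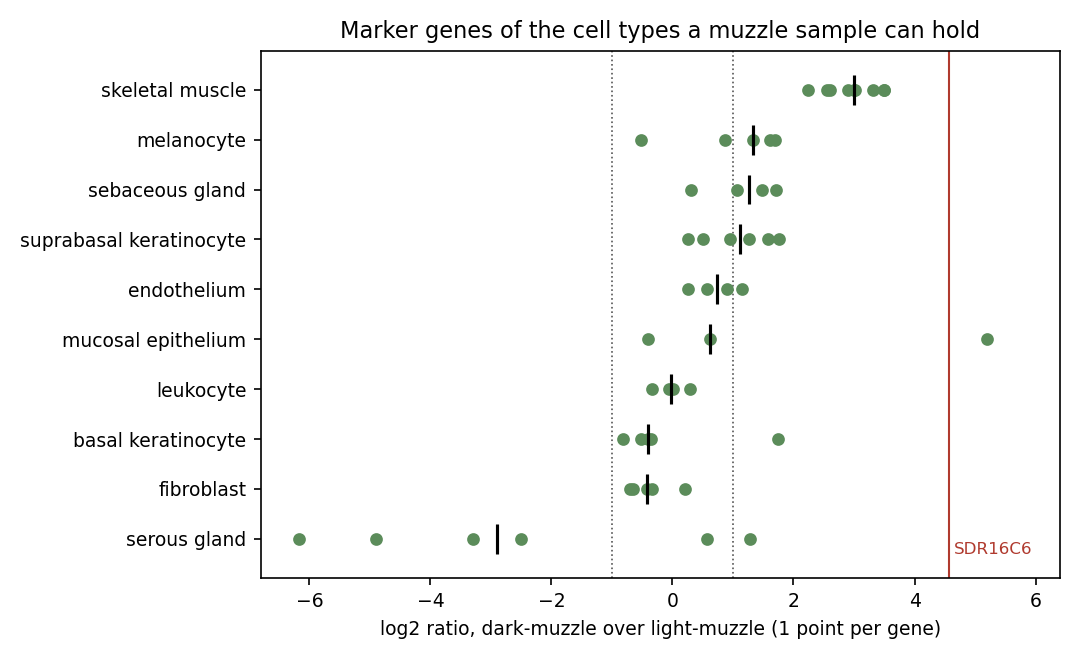
Mean log2 ratio of the dark over the light muzzle (x axis) for each marker gene measured on both arrays, with 1 row per cell type; black ticks are the list medians, dotted lines mark 2-fold and the solid line is SDR16C6. All skeletal muscle genes lie beyond 2-fold higher, most serous gland genes beyond 2-fold lower, and KRT4 alone lies to the right of SDR16C6.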

How the data were processed

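The 9 genes, the pathway lists and the marker lists were chosen with earlier results of these data known. The deposited scanner output, made by the authors with Agilent Feature Extraction 10.7.3.1, gives for each spot a processed signal, an intensity after background subtraction, with its error. A probe-level table of log2 values, likewise deposited by the authors, served as an alternative. Log2 processed signals were shifted by each array's 75th percentile over 43803 noncontrol spots. After removal of 21 outlier spots, replicate spots were averaged per probe. Spots well above background made up 78.8% of the light-muzzle and 81.9% of the dark-muzzle array, and 0 were saturated. Of the 43639 probes, 33451 were measured on both arrays, while 2260 (dark muzzle alone) and 922 (light muzzle alone) stood well above background on 1 array. Nearly all of the latter received a lower bound, except where it would have pointed the other way. In all, 36630 probes had a ratio or a bound. For a bound, the dim side was set to its own signal or to the array's detection limit (an intensity of 20.8 for the light and 20.3 for the dark muzzle), whichever was brighter. Where its own signal was brighter, the value is a ratio to a dim spot and not a strict bound.

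RefSeq (ARS-UCD2.0) gave a symbol to 20587 probes (47.2%) by accession. Start coordinates of that assembly served only to put genes in order along the chromosome. None is printed, since the array was designed on another assembly, and no probe or protein sequence was used here. The genes named were all members, pathway genes past 2-fold, nuclear receptors and the main carriers and enzymes of the pathway, the 5 symbols with the ratio nearest to SDR16C6, its 3 neighbours on each side, and the 2 brightest genes of each marker list. The remaining pathway genes, further genes along the chromosome and 6 marker genes (STATH, MC5R, TYRP1, BPIFA1, LPO and MAL) were named after their values had been seen, and a gene that the rule names is not reported here.

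Alternatives comprised normexp background correction (offset 50), quantile normalization, no shift, centring on the 50th percentile, no filter on dim probes, probes measured on both arrays alone, outlier spots kept, the deposited log2 table, genes in place of probes, and thresholds of 1.5-fold and 3-fold. They were run with Python 3.11.15, numpy 2.4.6, pandas 2.3.3, R 4.3.3 and limma 3.58.1. The counting was tested on simulated data. Each simulated probe had the same background status on both arrays, so the rule for bounds was not tested.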

Additional observations from a re-analysis of the deposited data

How the results depend on the processing

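No paired analysis was possible because each group had 1 array. Under the alternatives, 74 counts, medians and ratios of SDR16C6 stayed within 1.5 times (counts) or 0.18 (log2 ratios, the median SD between probes of a transcript) and the 19 below did not. Of the retinoid genes' ratios, those of CRABP2, ADH4 and a probe of AOX1 turned sign under normexp. Normexp gave SDR16C6 a log2 ratio of 4.13 and the DHRS9 probes 1.47 and 1.18, and left 13 pathway probes higher, with 2132 higher and 1563 lower among all probes. With no filter on dim probes 6018 of all probes were higher, and with probes measured on both arrays alone 14 pathway probes were higher. Counted by genes (the mean of a gene's probes measured on both arrays, or its largest bound where it had none), 13 pathway genes were higher and 5 lower, 879 of all 8914 genes were higher and 577 lower, and the median of the 6 genes was 0.30. At 1.5-fold, 5 of the 9 probes were higher and 1 lower, with 7226 higher and 5542 lower among all probes. At 3-fold, 15 pathway probes were higher and 7 lower, with 1620 and 1169 among all probes. The median ratio of all probes moved between -0.044 and 0.029 with the scaling. Normexp was run on the median pixel signal, and the planned version on the mean pixel signal was not run. The 8 spike-in controls measured on both arrays had ratios of -0.37, -0.23, -0.23, -0.23, -0.22, -0.20, -0.022 and 0.012, so most were lower on the dark-muzzle array. Small lower ratios of genes, such as -0.27 for RDH10 and a mean of -0.23 for HSD17B11, are of that size. Signal over background limits the dimmest values: 2 dim spike-ins had 0.90 and 1.89, at intensities of 7.08 and 8.43 in the light-muzzle and 12.4 and 31.9 in the dark-muzzle cow. The spike-in at 1.89 was well above background in a share of 0.94 of its dark-muzzle spots and 0 of its light-muzzle spots. Dim probes with a dark-muzzle bound have that same pattern, so their bounds are open to this limit.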
